A study of Mus musculus with 8 samples.

Results

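The circadian clock genes of brown adipose tissue (BAT) were taken from the count table by gene name, as Per1, Per2, Per3, Cry1, Cry2, Arntl (also called Bmal1), Nr1d1, Nr1d2, Dbp and Tef. The table held all 10 of them among 56953 genes, once each. BAT RNA was sequenced in 8 libraries of C57BL/6J wild-type (WT) mice. Age and sex are given for the study as a whole, as 8 to 10 weeks when divided into groups, before injection, and male or female. The 4 cachexia (CAC) libraries came from mice injected under the skin with 3000000 LLC cells, a mouse lung carcinoma line, and the 4 control (CTR) libraries came from mice injected with PBS alone. Mice were followed for 21 days after injection, and the study kept only those injected mice in which a tumour grew. All mice were kept at 21.0 °C with 12 h of light from 6 a.m. and 12 h of dark, and with free access to food. The hour at which BAT was taken is not given in the sources used here. Whether all mice were sampled at the same hour is also not given, so the phase of the daily cycle is unknown for each library. A change in level therefore cannot be told apart from a change in phase or in the hour of collection.

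The molecular clock is a feedback loop of transcription that runs in nearly every cell. BMAL1, encoded by Arntl, pairs with CLOCK and switches on the Per, Cry, Nr1d and PAR bZIP genes through E-box sequences. PER and CRY proteins then return to block BMAL1 and CLOCK, and the REV-ERB receptors, encoded by Nr1d1 and Nr1d2, repress Arntl. Dbp and Tef encode PAR bZIP factors, which carry the rhythm to downstream genes through D-box sequences. In BAT the clock is known to pace heat production and lipid handling over the day, and Per1 is also known as an immediate target of glucocorticoid hormone and of cAMP signalling.

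Library totals ranged from 2454493 to 4827956 counts in CTR and from 1823167 to 3392538 counts in CAC, so that 3 counts equalled 0.661 to 1.62 CPM (counts scaled to a library size of 1000000). Brown adipocyte markers, among them Ucp1 and Cidea, were present in every library, with a summed level of 16000 to 17800 CPM in CTR against 15500 to 17800 CPM in CAC. Of the 8, 0 were called by edgeR (0.932% of all tested genes were), and Plin1 (log2 fold change -0.27, unadjusted p = 0.00841) and Cox7a1 (-0.22, unadjusted p = 0.0243) had every CAC library below every CTR library, as had 3.4% of all tested genes, while 5.93% were lower at an unadjusted p below 0.05. The median log2 fold change of the 8 was 0.03, with 5 above 0, among them Dio2 (0.69) and Cidea (0.18). Other cells also left RNA in these libraries, and in bulk tissue fewer cells of a type and less RNA per cell cannot be told apart. The labels number the libraries without naming animals, so p-values measure the spread between libraries.

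Of the 10 clock genes, 9 passed the low-count filter and were among the 9876 genes tested in edgeR's quasi-likelihood fit, and Arntl did not pass. Only Per1 differed between CAC and CTR at an adjusted p below 0.05 over all genes tested, which 0.932% of the tested genes did. It rose, as did 0.739% of the tested genes. At an unadjusted p below 0.05, 3 of the 9 (Per1, Per2 and Nr1d2) were higher in CAC, where the same held for 7.01% of all tested genes, and 0 of the 9 were lower, against 5.93%. The same 3 genes also had an absolute log2 fold change above 0.5, a pair of conditions that 6.79% of the tested genes met. The groups stood apart, with every CAC library above every CTR library, for Per1 and Nr1d2, against 3.64% of the tested genes, and 0 of the 9 had every CAC library below CTR, against 3.4%. The median log2 fold change of the 9 genes was 0.19, beside 0 over all tested genes. The plot of levels by library shows the shift of Per1 beside members whose groups overlap.

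**Figure D1:**
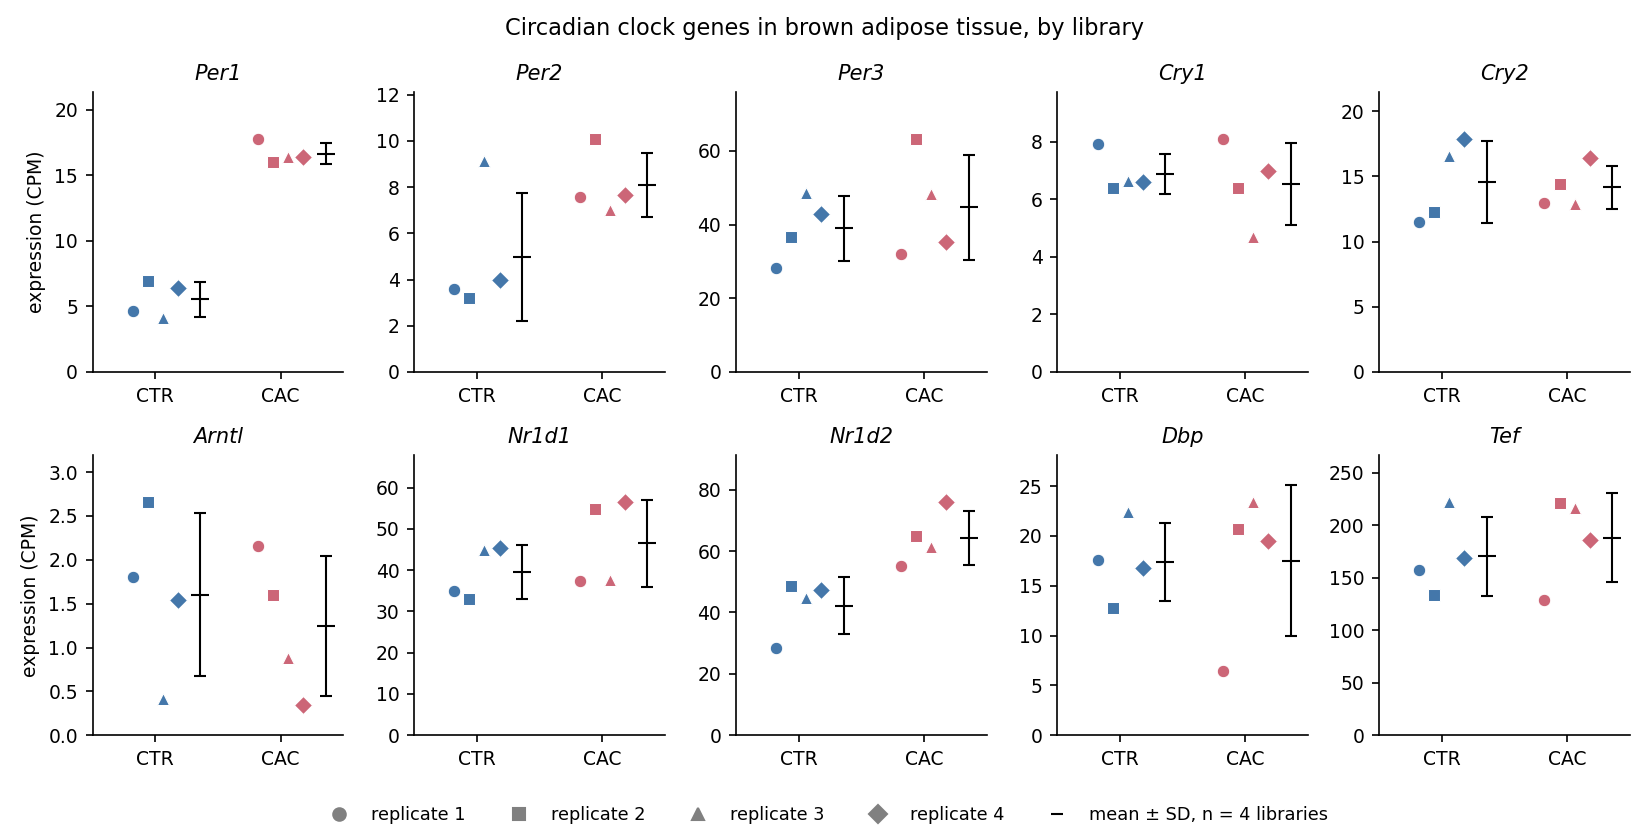
Expression of the 10 clock genes in CPM in each library, with 4 CTR libraries in blue and 4 CAC libraries in red; marker shapes give the replicate number, and black bars give the mean ± SD. Per1 lay between 4.15 and 6.92 CPM in CTR and between 16.0 and 17.8 CPM in CAC, whereas the groups of Per3, Cry1, Cry2, Arntl, Nr1d1, Dbp and Tef overlapped, as did those of Per2 through CTR replicate 3.

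Per1 (ENSMUSG00000020893.18) encodes a period protein of the repressing arm and spans 69095217 to 69109960 of chromosome 11 (GRCm38). CTR libraries held 13, 26, 10 and 29 counts of it and CAC libraries 33, 30, 56 and 47. Scaled to library size, these were 4.68, 6.92, 4.15 and 6.39 CPM in CTR against 17.8, 16.0, 16.4 and 16.4 CPM in CAC. All 4 CAC libraries lay close to one another and well above the highest CTR library. Per1 rose 2.9-fold, with means of 5.54 ± 1.33 CPM for CTR and 16.6 ± 0.822 CPM for CAC (SD, n = 4). The log2 fold change was 1.53 (standard error 0.21, 95% interval 1.09 to 1.98, edgeR adjusted p = 0.0003). Among the 9876 genes tested it held rank 14 by p and rank 25 by log2 fold change. No library held a fraction of a read on Per1, and the annotation places no other gene over it. The rise kept an adjusted p below 0.05 in all 15 alternative fits, where the log2 fold change lay between 1.44 and 1.65.

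Per2 (ENSMUSG00000055866.10), a further period gene, lies on chromosome 1 from 91415982 to 91459324. It was at 3.60, 3.20, 9.13 and 3.97 CPM in CTR against 7.57, 10.1, 7.03 and 7.67 CPM in CAC, from 10 to 24 counts each. CTR replicate 3 stood above 3 of the CAC libraries, so the groups overlapped, and the other 3 CTR libraries lay below all of CAC. The log2 fold change was 0.76 (standard error 0.31, 95% interval 0.12 to 1.39), and it did not pass the test (edgeR adjusted p = 0.286). Without CTR replicate 3 the value was 1.13 (edgeR adjusted p = 0.0542), which also missed the threshold.

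Per3 (ENSMUSG00000028957.13), the third period gene, lies on chromosome 4 from 151003652 to 151044665, inside the span of Camta1 on the same strand. It was at 28.1, 36.5, 48.6 and 42.8 CPM in CTR against 31.9, 63.3, 48.3 and 35.2 CPM in CAC. The groups overlapped throughout, and the log2 fold change of 0.19 had a 95% interval of -0.27 to 0.66 (edgeR adjusted p = 0.767). Leaving out single libraries moved the value from 0.00, without CAC replicate 2, to 0.31, without CAC replicate 1 or 4. Camta1 itself was at 7.11 ± 1.46 CPM in CTR against 6.80 ± 2.07 CPM in CAC (SD, n = 4). The 3 period genes thus had log2 fold changes of 1.53, 0.76 and 0.19, and the difference between them was not tested in the fit.

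The promoters of the period genes show which clock elements lie close to their start sites. RefSeq start windows of GRCm38.p6, reaching 250 bases before and 50 after a start, were given for 9 of the 10 genes, with 12 windows in all, and Per2 had none. On both strands, the windows were searched for the E-box CACGTG, the D-box as TTATGTAA or TTACGTAA, the site of ROR and REV-ERB as TAGGTCA or TGGGTCA, and the cAMP element TGACGTCA. No match overlapped another. The 250 bases before the upstream Per1 start are shown because Per1 was the gene that rose, those of Per3 because they hold the only D-boxes found, and those of Nr1d2 because its groups also stood apart. Capitals mark the matches.
Per1, chr11:69098699-69098948, plus strand: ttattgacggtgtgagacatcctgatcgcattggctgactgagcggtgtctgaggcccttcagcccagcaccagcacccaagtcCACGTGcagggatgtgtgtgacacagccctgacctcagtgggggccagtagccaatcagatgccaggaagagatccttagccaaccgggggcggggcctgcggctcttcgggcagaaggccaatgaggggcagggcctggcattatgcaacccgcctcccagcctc
Per3, chr4:151044666-151044915, minus strand: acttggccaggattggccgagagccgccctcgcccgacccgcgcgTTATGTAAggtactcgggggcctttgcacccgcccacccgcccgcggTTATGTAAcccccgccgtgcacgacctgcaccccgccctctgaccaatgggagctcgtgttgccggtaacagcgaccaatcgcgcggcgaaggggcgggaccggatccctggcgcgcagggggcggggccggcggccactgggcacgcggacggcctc
Nr1d2, chr14:18239107-18239356, minus strand: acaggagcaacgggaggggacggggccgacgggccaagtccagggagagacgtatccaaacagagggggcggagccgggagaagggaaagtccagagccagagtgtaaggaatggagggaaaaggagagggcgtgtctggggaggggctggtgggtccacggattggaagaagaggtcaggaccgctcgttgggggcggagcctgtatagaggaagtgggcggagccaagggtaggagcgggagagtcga

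The Per1 stretch held 1 E-box, which began 166 bases before the start, and its second start window held none of the searched letters. Per3 held the D-box TTATGTAA at 2 places, beginning 205 and 158 bases before the start. Windows with a D-box made up 1.06% of the 32851 windows in the table. An E-box was also present in Cry1, a cryptochrome gene, and in both Tef windows, so that 4 of the 12 windows, of 3 genes, had one, beside 7.15% of all windows. The E-box of Cry1 began 60 bases before the start, and those of Tef 127 and 138 bases before theirs. The stretches around these are shown for comparison with Per1, since neither gene passed the test.
Cry1, chr10:85185089-85185134, minus strand: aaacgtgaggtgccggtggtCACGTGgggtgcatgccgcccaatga
Tef, first start, chr15:81802526-81802571, plus strand: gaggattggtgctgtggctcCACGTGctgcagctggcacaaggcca
Tef, second start, chr15:81811256-81811301, plus strand: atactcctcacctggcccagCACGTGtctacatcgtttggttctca

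The remaining windows held little. Arntl had the letters TAGGTCA 30 bases after 1 of its 2 starts, as 6.45% of all windows had that or its variant, and the windows of Cry2, Nr1d1, Nr1d2 and Dbp held none of the letters. The cAMP element was in none of the 12 windows and in 1.79% of all windows. A match is a description of the sequence and not evidence of binding. Only the exact letters given were searched, so shorter or variant forms of these elements were not counted. Letters absent here may also lie outside these windows.

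The cryptochromes, which join the period proteins in the repressor complex, showed no change that could be detected. Cry1 (ENSMUSG00000020038.11, chromosome 10 from 85131700 to 85185064) was at 7.92, 6.39, 6.64 and 6.61 CPM in CTR against 8.11, 6.38, 4.69 and 6.97 CPM in CAC. Its log2 fold change was -0.10 (95% interval -0.62 to 0.41, edgeR adjusted p = 0.912). Cry2 (ENSMUSG00000068742.12, chromosome 2 from 92403646 to 92434043) ranged from 11.5 to 17.9 CPM in CTR and from 13.0 to 16.4 CPM in CAC. Its log2 fold change was -0.05 (95% interval -0.45 to 0.36, edgeR adjusted p = 0.956). A transcript annotated on the opposite strand, D930015M05Rik, lies over most of Cry2, and the strand setting of the counting is not given in the sources used here. The direction of both genes changed when single libraries were left out, to at most 0.06 for Cry1, without CAC replicate 3, and 0.10 for Cry2, without CTR replicate 4.

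Arntl (ENSMUSG00000055116.9), the activator of the loop, lies on chromosome 7 from 113207465 to 113314126 and was close to the limit of these libraries. Its counts were 5, 10, 1 and 7 in CTR and 4, 3, 3 and 1 in CAC, that is 1.80, 2.66, 0.415 and 1.54 CPM against 2.16, 1.60, 0.879 and 0.349 CPM. The groups overlapped, and 4 of the 8 libraries held 3 counts or fewer. The means were 1.61 ± 0.927 CPM for CTR and 1.25 ± 0.796 CPM for CAC (SD, n = 4, exact two-sided permutation p = 0.571). Summed over libraries, 23 counts in CTR gave 1.71 CPM (exact 95% Poisson interval 1.08 to 2.56) and 11 counts in CAC gave 1.10 CPM (0.548 to 1.97). The ratio of the sums, CAC over CTR, was 0.644 with a 95% counting interval of 0.283 to 1.37, so a moderate change in either direction was not detectable at this depth. Intervals of this kind cover counting error only. An antisense transcript, Gm45355, shares 2394 bases with Arntl and was too low to be tested.

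Nr1d2 (ENSMUSG00000021775.12), which encodes REV-ERB beta, lies on chromosome 14 from 18204054 to 18239127. It was at 28.4, 48.5, 44.8 and 47.2 CPM in CTR against 55.1, 64.9, 61.2 and 76.0 CPM in CAC. Every CAC library lay above every CTR library, and CTR replicate 1 was the lowest of all. The means were 42.2 ± 9.32 CPM and 64.3 ± 8.76 CPM (SD, n = 4), and the log2 fold change was 0.60 (standard error 0.15, 95% interval 0.29 to 0.91). The edgeR adjusted p was 0.0569, just above the threshold, and it ranged from 0.00272 to 0.174 over the alternatives. It fell below 0.05 without the low-count filter (0.00272), with the replicate number as a block (0.0181) and without CAC replicate 1 (0.0416).

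Nr1d1 (ENSMUSG00000020889.12), which encodes REV-ERB alpha, lies on chromosome 11 from 98767932 to 98775333. Its level was 34.9, 33.0, 44.8 and 45.4 CPM in CTR against 37.3, 54.8, 37.5 and 56.5 CPM in CAC. The upper 2 CAC libraries exceeded all of CTR and the lower 2 lay within it. The log2 fold change was 0.23 (95% interval -0.09 to 0.56, edgeR adjusted p = 0.57), and with single libraries left out it lay between 0.12, without CAC replicate 4, and 0.33, without CAC replicate 3. The last 1075 bases of Nr1d1 lie under the end of Thra, the thyroid hormone receptor alpha gene of the opposite strand. Thra was at 220 ± 27.3 CPM in CTR against 207 ± 37.1 CPM in CAC (SD, n = 4), and 2 libraries held fractions of reads on Nr1d1, so reads of the pair may have been split and the Nr1d1 level is uncertain.

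Dbp (ENSMUSG00000059824.13), a strongly rhythmic output of the clock, lies on chromosome 7 from 45705088 to 45710203. It was at 17.6, 12.8, 22.4 and 16.8 CPM in CTR against 6.49, 20.7, 23.4 and 19.5 CPM in CAC. CAC replicate 1, with 12 counts, was the lowest of the 8 libraries, and the other 3 CAC libraries lay within or just above the CTR range. The means were 17.4 ± 3.95 CPM and 17.5 ± 7.55 CPM (SD, n = 4), and the log2 fold change was 0.08 (standard error 0.28, 95% interval -0.52 to 0.69, edgeR adjusted p = 0.943). Its sign changed in 3 of the 15 alternative fits, with values from -0.10 to 0.32 over all of them. Dbp shares 737 bases with Sphk2 of the opposite strand, at 44.4 ± 4.34 CPM in CTR against 42.0 ± 3.90 CPM in CAC, and 4 libraries held fractions of reads on Dbp.

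Tef (ENSMUSG00000022389.16), the related PAR bZIP gene, lies on chromosome 15 from 81802421 to 81826863. It was at 157, 133, 222 and 169 CPM in CTR against 129, 221, 216 and 186 CPM in CAC. As for Dbp, CAC replicate 1 was the lowest library and CTR replicate 3 was the highest of CTR. The log2 fold change was 0.15 (standard error 0.19, 95% interval -0.26 to 0.56, edgeR adjusted p = 0.804). With single libraries left out, the value ranged from 0.04, without CTR replicate 2, to 0.30, without CTR replicate 3. Tef had 239 to 768 counts per library, so counting error weighed little on it. The antisense transcript Gm17597 shares 193 bases with its 5′ end and was too low to be tested.

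**Figure D2:**
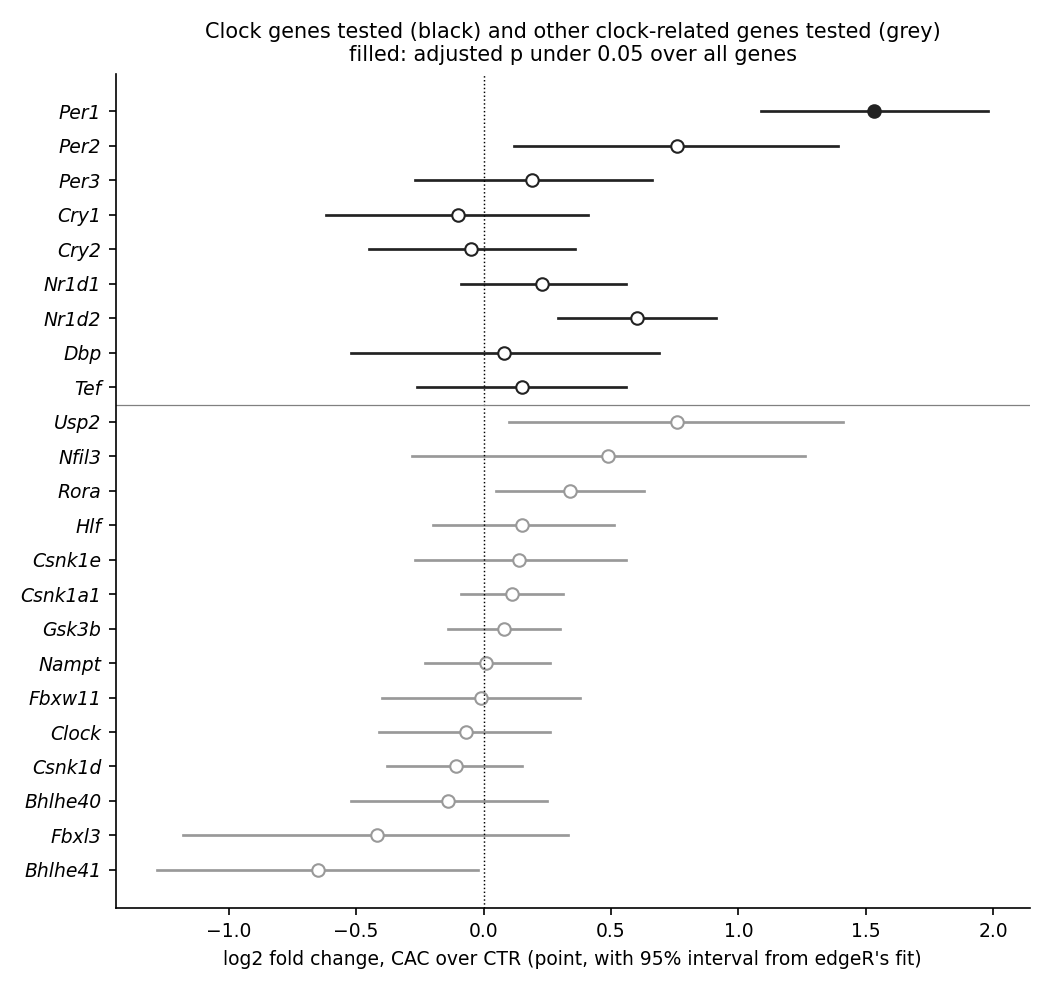
The log2 fold change of CAC over CTR (points) with its 95% interval from edgeR's fit (lines) for the 9 clock genes tested, in black, and for 14 further clock-related genes, in grey; filled points have an adjusted p below 0.05. Per1 is the filled point at 1.53, and the intervals of Per3, Cry1, Cry2, Nr1d1, Dbp and Tef cross 0.

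To compare the arms of the loop within each library, the mean log2 CPM of the Per genes, that of the output arm (Nr1d1, Nr1d2, Dbp and Tef) and that of Arntl were set against each other. These are differences of log2 levels between genes, so only their change from CTR to CAC is read, and as scores over chosen genes they were given no test. The Per genes minus the output arm gave -2.26, -2.01, -2.11 and -2.17 in CTR and -1.13, -1.51, -1.67 and -1.89 in CAC. No CAC value fell within the CTR range, and the mean shifted by 0.58. The shift was 0.90 with Per1 and Per2 alone. It was 0.23 with Per2 and Per3 alone, a choice made after seeing the data, and then the groups overlapped, so the separation rested on Per1.

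Against Arntl the picture was less clear. The Per genes minus Arntl ranged from 1.62 to 3.60 in CTR and from 2.59 to 4.06 in CAC, with means of 2.34 ± 0.89 and 3.38 ± 0.62 (SD, n = 4). The output arm minus Arntl ranged from 3.63 to 5.70 in CTR and from 3.72 to 5.95 in CAC, with means of 4.48 ± 0.89 and 4.94 ± 0.93. Both pairs of groups overlapped. CTR replicate 3, which had 1 count of Arntl, was the highest CTR library in both. The shift of the output arm against Arntl, 0.46, was 0.18 without CTR replicate 2, 0.87 without CTR replicate 3, 0.86 without CAC replicate 1 and 0.12 without CAC replicate 4.

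**Figure D3:**
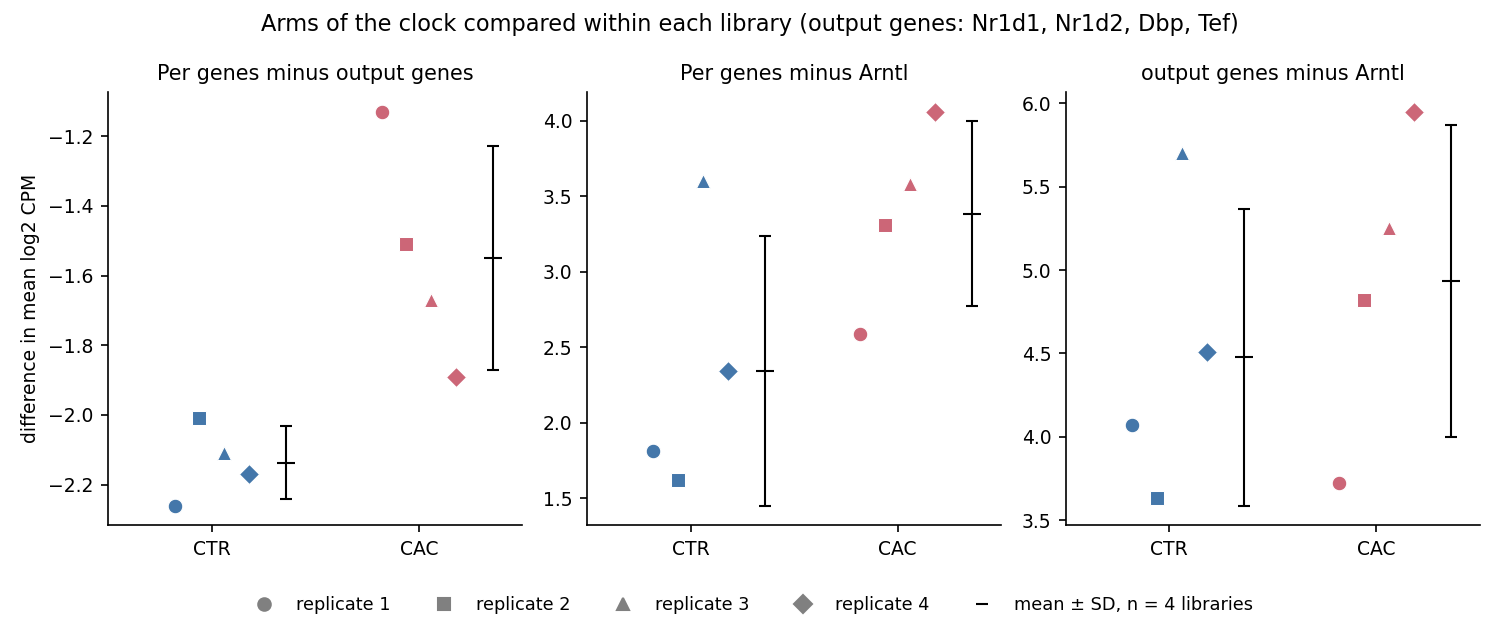
Difference in mean log2 CPM between arms of the clock in each library, with CTR in blue and CAC in red, marker shapes for the replicate number and black bars for the mean ± SD of 4 libraries. The groups stand apart for the Per genes minus the output genes, with means of -2.13 and -1.55, and overlap in both comparisons with Arntl.

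Per1 alone was then set against each other member. The log2 CPM of Per1 minus that of Arntl was 1.11, 1.19, 2.14 and 1.67 in CTR and 2.70, 2.87, 3.45 and 4.05 in CAC, a shift of 1.74 with no overlap. Per1 minus Dbp shifted by 1.60, Per1 minus Nr1d1 by 1.29 and Per1 minus Nr1d2 by 0.88, each with no overlap. Per1 minus Per2 shifted by 0.77 and the groups overlapped. In all, 8 of the 9 differences left the groups apart, and so did 93.8% of the differences between Per1 and each of the other 9875 tested genes.

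The 7 tested members whose groups overlapped were compared with one another over the 8 libraries, which gave 21 pairs. Dbp and Tef followed each other most closely, with Pearson's r = 0.86 (exact permutation p = 0.000273, adjusted over the 21 pairs 0.00573) and Spearman's rho = 0.90 (exact permutation p = 0.00456, adjusted 0.0958). Without the 2 libraries farthest from the median of Dbp, CTR replicate 2 and CAC replicate 1, r was 0.90. Within CTR alone r was 0.96 and within CAC alone it was 0.97, each over 4 libraries. High values within a group were not particular to this pair. For Cry2 and Nr1d1 r was 0.96 in CTR and 0.91 in CAC, and for Per2 and Tef 0.95 and 0.36. The other 20 pairs had adjusted p values above 0.05, and r over the 21 pairs ranged from -0.63 (Per3 and Cry1) to 0.86. The level of Dbp and Tef thus differed from library to library inside each group, in parallel. Per1 in CAC lay between 16.0 and 17.8 CPM, from 33, 30, 56 and 47 counts. In CAC replicate 1 Dbp was at 6.49 CPM, from 12 counts. Counts this low carry counting error, so the closeness of the Per1 values is not read as steadiness. A difference in spread between Per1 and Dbp was not tested.

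**Figure D4:**
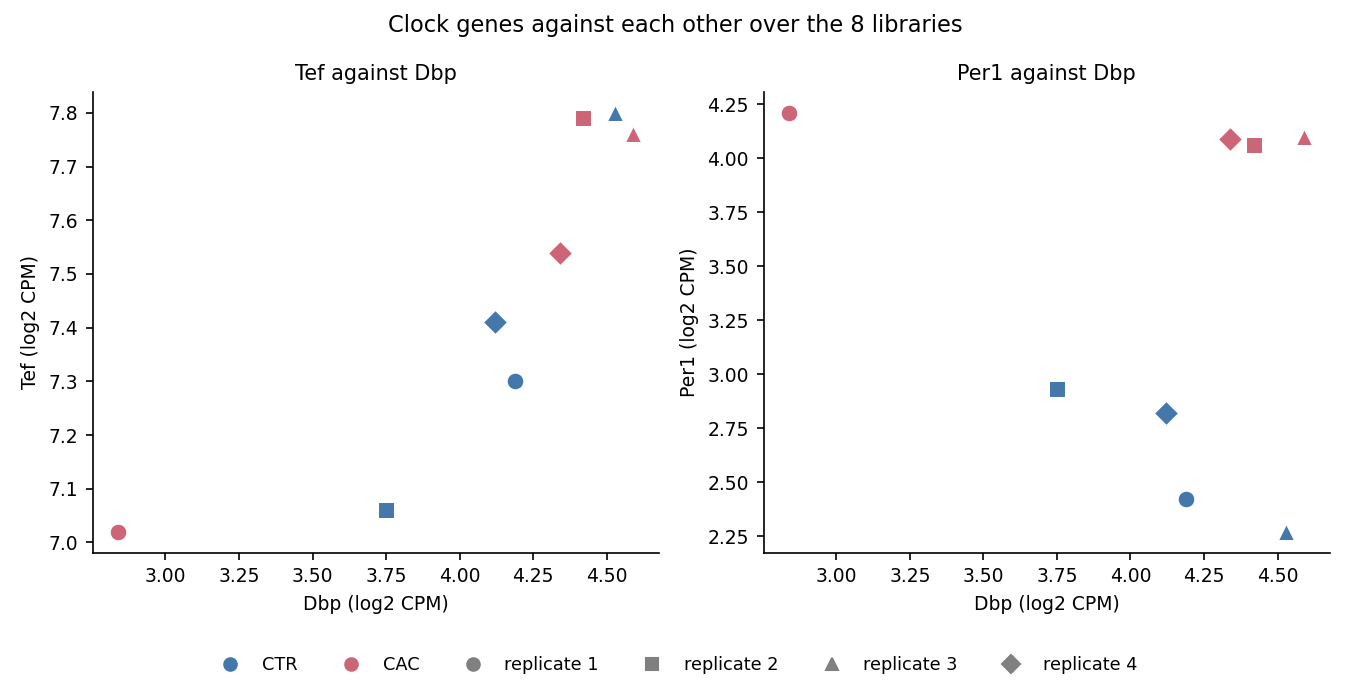
Log2 CPM of Tef (left) and of Per1 (right) against Dbp in each of the 8 libraries, with CTR in blue, CAC in red and marker shapes for the replicate number. Tef rises along with Dbp over both groups (r = 0.86), while Per1 is higher in all 4 CAC libraries than in any CTR library.

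The genes whose levels were most like that of Dbp over the 8 libraries, among 6284 genes of at least 10 CPM, were Sox6, Kifap3, Clec3b, Ipo7 and Psmd11, with r from 0.92 to 0.96. Those most opposite were Gak, Psmb5 and Comtd1, with r from -0.96 to -0.95. The genes most like Arntl were Sgsh, Afg1l, Tmem88, Vps53 and Mapt, with r of 0.93 or 0.94, and those most opposite were Ankrd49, Mark4 and Nsa2-ps1, with r from -0.97 to -0.93. These are the extremes of all genes compared and carry no test. Arntl had 1 to 10 counts per library, so its values describe sparse counts.

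A wider list of 22 clock-related genes covered partners of BMAL1, the ROR receptors, other repressors, kinases, ubiquitin ligases and further outputs. Of these, 14 were tested, and 0 had an adjusted p below 0.05 by edgeR, DESeq2 or limma, beside 0.932% of all tested genes by edgeR. Over all genes, DESeq2 called 116 and limma called 70. At an unadjusted p below 0.05, 2 were higher and 1 was lower, while 12.9% of all tested genes passed in either direction. The median log2 fold change was 0.05, with 8 genes above 0 and 6 below, where 50% of all tested genes were above 0. Clock, which encodes the partner of BMAL1, was at 28.4 ± 5.76 CPM in CTR against 27.5 ± 3.42 CPM in CAC (SD, n = 4, log2 fold change -0.07, edgeR adjusted p = 0.90). Npas2, which encodes the alternative partner, had 4.5 counts in CTR and 2 in CAC over all libraries.

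The 3 genes of the wider list with the smallest p were Rora, Usp2 and Bhlhe41. Rora, the ROR receptor that activates Arntl, was at 26.3, 34.9, 25.7 and 29.8 CPM in CTR against 34.1, 33.5, 39.3 and 40.8 CPM in CAC (log2 fold change 0.34, edgeR adjusted p = 0.286). Usp2, a rhythmic deubiquitinase, was at 25.6, 32.2, 46.9 and 37.7 CPM in CTR against 29.7, 75.0, 68.3 and 64.5 CPM in CAC (log2 fold change 0.76, edgeR adjusted p = 0.312). CAC replicate 1, the library with the least Dbp and Tef, also lay apart from the other CAC libraries in Usp2, and without it the adjusted p of Usp2 was 0.00336. Bhlhe41, the E-box repressor DEC2, was at 8.96 ± 3.32 CPM in CTR against 5.32 ± 1.47 CPM in CAC (SD, n = 4, log2 fold change -0.65, edgeR adjusted p = 0.363).

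Genes of the signals known to act on Per1 were read beside it. Of 10 glucocorticoid targets, 9 were tested, 8 had a log2 fold change above 0 (50% of all tested genes had) and the median was 0.46 beside 0 over all tested genes, but 0 passed at an adjusted p below 0.05 by edgeR (0.932% of all did). The 10 targets summed to 404 to 492 CPM in CTR against 509 to 697 CPM in CAC. Without Mt2, whose own groups overlapped, the other 9 summed to 276 to 299 CPM against 274 to 386 CPM and overlapped, a split made after seeing the data. Klf9 made up most of that sum, at 182 ± 12.6 CPM in CTR against 187 ± 37.3 CPM in CAC (SD, n = 4, log2 fold change 0.04). The overlap of the sum therefore says little about the smaller targets. At an unadjusted p below 0.05, 4 were higher (7.01% of all tested genes were). DESeq2, which called 116 genes in all, called 1, Mt2, a metallothionein gene (adjusted p = 0.00675). With limma, which called 70 genes in all, 0 were called. The smallest p values by edgeR belonged to Cdkn1a, Mt2 and Fkbp5. Fkbp5, a co-chaperone of the glucocorticoid receptor, was at 3.24, 2.13, 0.83 and 2.65 CPM in CTR against 4.87, 3.72, 4.40 and 7.32 CPM in CAC (log2 fold change 1.16, edgeR adjusted p = 0.148). Fkbp5 had 9, 8, 2 and 12 counts in CTR and passed the low-count filter through CAC, where it was high. Mt2 was at 149 ± 37.8 CPM in CTR against 246 ± 47.4 CPM in CAC (SD, n = 4, edgeR adjusted p = 0.101), and without CTR replicate 4 its adjusted p was 0.00106. Cdkn1a, which encodes p21, was at 47.6 ± 3.48 CPM in CTR against 69.8 ± 17.6 CPM in CAC (SD, n = 4, edgeR adjusted p = 0.0829). Of the 9 targets tested, 2 (Cdkn1a and Fkbp5) had every CAC library above every CTR library, as had 3.64% of all tested genes.

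Of 12 immediate early genes of cAMP and serum signalling, 4 were tested, 0 passed by edgeR, DESeq2 or limma, 0 had an unadjusted p below 0.05 (0.932% and 12.9% of all tested genes did by edgeR), and the median log2 fold change was 0.02. With 4 genes, such counts of 0 show nothing particular to the list. Those with the smallest p were Egr1, Nr4a2 and Crem. Egr1, a growth factor response gene, was at 57.9, 14.9, 12.4 and 1.76 CPM in CTR against 4.87, 3.19, 0.879 and 3.49 CPM in CAC (log2 fold change -2.85, standard error 1.26, edgeR adjusted p = 0.418) and ranged widely within CTR. The log2 fold changes of Nr4a2 and Crem were 0.38 and 0.28 (edgeR adjusted p = 0.754 and 0.772).

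Several marker lists of other cells differed between the groups in which Per1 was compared. Of the 10 neutrophil markers, 4 were tested and 3 rose (S100a8, S100a9 and Retnlg), and of the 9 macrophage markers, 8 were tested and 2 rose (C1qa and C1qb), where 0.739% of all tested genes did. In the CTR libraries S100a8 had 8, 18, 8 and 15 counts, S100a9 7, 4, 2 and 9, and Retnlg 1, 2, 5 and 5. These 3 genes passed the low-count filter through CAC, where they were high. The number that rose among the neutrophil markers tested was thus partly set by the filter. The neutrophil markers summed to 12.0 to 15.2 CPM in CTR against 174 to 443 CPM in CAC, and S100a8 and S100a9, which are not made by neutrophils alone, carried most of that. The other 8 summed to 6.84 to 9.33 CPM in CTR against 19.2 to 39.5 CPM in CAC, a split made after seeing the data, and of these Cxcr2 was at 0 in every CTR library, and Camp in every CTR library and in 2 CAC libraries. The macrophage markers summed to 209 to 234 CPM in CTR against 289 to 409 CPM in CAC.

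The sums of the other lists overlapped between the groups. The 10 skeletal muscle markers summed to 1230 to 3040 CPM in CTR against 2650 to 4960 CPM in CAC, and the 5 erythroid markers to 6180 to 19300 CPM and 14600 to 44300 CPM. Neither list had a call by edgeR or limma, which called 0.932% of all tested genes and 70 genes in all, respectively. At an unadjusted p below 0.05, 6 of the muscle markers and 4 of the erythroid markers were higher in CAC, against 7.01% of all tested genes. DESeq2, which called 116 genes in all, called 2 muscle markers, Myh4 and Pvalb, and 0 erythroid markers, and without CTR replicate 3 edgeR called Pvalb (adjusted p = 0.0345). Endothelial markers summed to 240 to 315 CPM in CTR against 196 to 276 CPM in CAC, and fibroblast and progenitor markers to 465 to 611 CPM and 404 to 592 CPM. The part of any of these cells in the rise of Per1 was not tested.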

How the data were processed

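Libraries for mRNA sequencing were prepared from total RNA of BAT, 4 for CTR and 4 for CAC, and sequenced as single-end reads of 75 cycles. Reads were checked with FastQC 0.11.9, aligned to mm10 with HISAT2 2.2.1 and counted per gene with featureCounts using its multi-mapping option, per the submitters' processing notes and the study's methods; the strand setting is not given in the sources used here. The deposited table holds expected counts, with fractions of reads whose source, reads mapping to several places or to overlapping genes, was not separated, and these were rounded to whole reads. The authors also deposited normalized counts, a signal per gene divided by library factors, which were used only in the limma alternative (log2 of the value plus 1).

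CPM is the count scaled to an effective library size of 1000000, and log2 CPM used a prior count of 2. Counts were tested in edgeR 4.0.16 (R 4.3.3) with its low-count filter, TMM scaling and the robust quasi-likelihood test, with Benjamini-Hochberg adjustment over all 9876 genes and a threshold of 0.05. Alternatives were DESeq2 1.42.0, limma 3.58.1, other scalings and filters, a replicate block, and leaving out each library. Single values were compared by exact permutation, for which 4 against 4 libraries cannot go below p = 0.0286.

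The members and lists were chosen with earlier results of these data known, and 1 gene taken off the wider list is neither counted nor reported here. The text names the 10 members, the 3 genes of smallest p in the wider clock, glucocorticoid and immediate early lists, genes overlapping a member, and the 5 most like and 3 most unlike Dbp and Arntl. Clock, Npas2, Csnk1a1, Klf9 and the cell type markers in the text fall outside that rule and were picked with their values in view. Gene positions are from GENCODE M21 (GRCm38), which held 91.4% of the gene IDs without their version and 0.0615% with it, so the annotation release used for counting was another. Promoters are from RefSeq (GRCm38.p6).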

Additional observations from a re-analysis of the deposited data

Results flagged for a closer look

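In groups of 4 libraries, 4 of 88 groups examined had 1 library standing apart from the other 3 by Dixon's criterion, where chance gives about 1 in 20, or 4.4. Per2 was at 9.13 CPM in CTR replicate 3 and at 3.20 to 3.97 CPM in the other CTR libraries. Cry1 was at 7.92 CPM in CTR replicate 1 and at 6.39 to 6.64 CPM in the others. The output arm (Nr1d1, Nr1d2, Dbp and Tef) had a mean of 5.23 log2 CPM in CAC replicate 1 and 5.89 to 6.01 in the other CAC libraries. Of the wider list, Csnk1a1, a casein kinase that acts on PER proteins, was at 152 CPM in CTR replicate 2, with the others at 168 to 171 CPM. The cause was not tested for any of them.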

How the results depend on the processing

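Per1 was called in every alternative, with adjusted p from 1.83e-07 to 0.00276. The genes called over the whole table, 92 by edgeR, numbered 351 without the low-count filter, 140 with the replicate block, 671 by the rule of unadjusted p below 0.05 and absolute log2 fold change above 0.5, and 42 to 135 when 1 library was left out (42 without CTR replicate 1, 60 without CAC replicate 3). The members called, 1, became 2 without the filter and 2 with the block, both by adding Nr1d2, 3 by the unadjusted rule, and 1 to 2 with a library left out. The wider clock genes called, 0, became 1 without the filter and 1 with the block (Usp2 in both), 2 by the unadjusted rule, and 0 to 1 with a library left out. Nr1d2 had a log2 fold change of 0.58 without the filter and 0.62 with the block, both called, and 0.46 to 0.67 with a library left out, called without CAC replicate 1. The sign turned for Cry1 (-0.20 to 0.06 with a library left out), Cry2 (-0.14 to 0.10) and Dbp (-0.10 to 0.32, and -0.09 by limma). The Per minus output shift was 0.90 with Per1 and Per2 and 0.23 with Per2 and Per3, the latter added after seeing the data. With bases before the start alone, 0 members held the ROR and REV-ERB letters. By Spearman's rho, 2 of the 5 genes most like Arntl and 0 of those most like Dbp remained. Mt2 was also called with the block (adjusted p = 0.00173) and, with Cdkn1a, without the filter, and the block called 5 skeletal muscle markers. The shift of the output arm against Arntl was 0.12 to 0.87 with a library left out. The cause was not tested. Same-numbered libraries did not deviate together (r from -0.023 to 0.036), so the replicate block carries a number and no known pairing. Low counts limit Arntl (1 to 10 per library), Per2 (10 to 24), Cry1 (12 to 30) and Per1 (10 to 56).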
